A study of Homo sapiens with 65 samples.

Results

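The 8 genes described here encode transcription factors of the ETS family that endothelial and early blood cells use: ETV2, FLI1, ERG, ETS1, ETS2, ELK3, ETV6 and ELF1. They were picked by symbol and matched to the Ensembl identifiers of the deposited count table, in which each had 1 identifier, so that they make up 8 of its 58302 genes. RNA was sequenced from the human embryonic stem cell line H9 with the reporters SOX17 mCHERRY/w and RUNX1C GFP/w, called WT, and from a derivative of it that is RUNX1 -/- through deletion of the DNA-binding domain, called KO, so that the controls carry both reporters too. Whether the KO line is 1 clone was not given in the sources used here. The mesoderm cultures were kept in STAPEL medium with BMP4, activin A, VEGF, SCF and FGF2, with SB431542 and CHIR 99021 added from day 2, and from day 4 with VEGF, SCF, FGF2 and IGF2. They gave unsorted WT and KO cells of day 0, 2 and 4 (4 libraries in each of these groups). From day 7 they gave CD34+ CD43- cells, taken as SOX17+ (4 WT and 4 KO libraries) and SOX17- (4 WT and 3 KO libraries). From day 12 they gave CD34+ cells as SOX17+ CD43- (4 WT and 4 KO libraries), SOX17+ CD43+ (2 WT), SOX17- CD43+ (3 WT) and SOX17- CD43- (1 KO library, described without a test). The endoderm cultures received activin A with CHIR and PI-103 on the first day and activin A with DMH-1 afterwards, and gave unsorted WT cells of day 0, 2, 4 and 7 (3 libraries each). In all there were 65 libraries in 19 groups. The titles of the KO libraries of day 2 and day 4 name the knockout while their genotype field does not, and the titles were followed.

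ETS factors bind DNA through a conserved winged-helix domain, the ETS domain, which reads a short core, GGAA, with flanking bases that differ between family members. Many enhancers of endothelial genes carry such cores, often beside sites for GATA, SCL/TAL1, forkhead or SOX factors. ETV2 is known for a brief pulse of expression that starts the endothelial and blood programme in mesoderm. FLI1 and ERG are close relatives that keep endothelial genes active, and FLI1 also serves in blood stem cells and megakaryocytes. ETS1 and ETS2 are targets of the ERK kinases and act in endothelial migration and vessel growth. ELK3 is a ternary complex factor that works with serum response factor and represses its targets until it is phosphorylated. ETV6 is a repressor needed for blood stem cells in the bone marrow, and ELF1 is expressed in endothelium and in many blood cells.

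Stretches before transcription start sites are shown because 7 of the 8 genes were higher together in day 7 endothelium than in day 4 cultures, and because 1 of the lines lacks the DNA-binding domain of RUNX1. RefSeq windows of GRCh38.p14, running from 250 bases before to 50 after a start, were at hand for 6 of the 8 genes (13 windows). ETS cores were searched as CCGGAA and CAGGAA and RUNX sites as TGTGGT and TGCGGT, on both strands, and these motifs share no letters with each other where they were found. The 250 bases before the start are printed in the direction of the gene, with the matches in capitals. TTCCTG is CAGGAA read on the opposite strand, and ACCACA is TGTGGT read on the opposite strand.
ETV2: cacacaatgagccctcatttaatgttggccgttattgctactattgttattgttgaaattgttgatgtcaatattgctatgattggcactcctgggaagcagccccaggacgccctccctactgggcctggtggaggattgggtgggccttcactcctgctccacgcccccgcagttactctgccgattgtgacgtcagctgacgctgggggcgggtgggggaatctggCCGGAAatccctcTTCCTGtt
ERG: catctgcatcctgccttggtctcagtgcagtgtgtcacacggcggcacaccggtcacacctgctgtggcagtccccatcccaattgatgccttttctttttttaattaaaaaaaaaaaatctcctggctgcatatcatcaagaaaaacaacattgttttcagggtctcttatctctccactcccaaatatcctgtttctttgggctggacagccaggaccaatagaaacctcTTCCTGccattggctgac
ELK3: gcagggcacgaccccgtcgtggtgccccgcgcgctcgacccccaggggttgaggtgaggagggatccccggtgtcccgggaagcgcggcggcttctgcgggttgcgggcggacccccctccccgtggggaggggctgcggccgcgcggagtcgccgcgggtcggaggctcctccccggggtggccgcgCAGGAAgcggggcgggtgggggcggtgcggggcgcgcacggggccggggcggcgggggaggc
ETV6: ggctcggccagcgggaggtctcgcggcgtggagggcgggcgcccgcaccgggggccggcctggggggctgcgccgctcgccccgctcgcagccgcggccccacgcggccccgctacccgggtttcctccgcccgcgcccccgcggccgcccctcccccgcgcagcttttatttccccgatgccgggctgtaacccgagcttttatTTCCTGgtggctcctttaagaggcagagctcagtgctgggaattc
ETS2: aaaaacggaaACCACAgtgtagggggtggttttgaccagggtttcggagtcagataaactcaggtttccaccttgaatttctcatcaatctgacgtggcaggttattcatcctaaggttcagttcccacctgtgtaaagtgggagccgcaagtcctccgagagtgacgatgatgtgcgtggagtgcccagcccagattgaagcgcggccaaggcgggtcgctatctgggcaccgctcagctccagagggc

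The ETV2 stretch (chr19:35641495-35641744, plus strand) ends at the start of the gene and held CCGGAA beginning 21 bases before the start and CAGGAA on the opposite strand 8 bases before it. It was the only 1 of the 13 windows with CCGGAA, which 17.2% of 35116 promoter windows of the same length held. CAGGAA lay in 7 of the 13 windows, belonging to ETV2, ERG, ELK3, ETV6 and ELF1, against 28.4% of all windows. The ERG stretch (chr21:38498505-38498754, minus strand) belongs to an internal start, 163276 bases inside the outer start of the gene, and held CAGGAA on the opposite strand 18 bases before the start. A second ERG window overlaps it and holds the same site, so the windows of 1 gene are not independent. The ELK3 stretch (chr12:96194125-96194374, plus strand) held CAGGAA 62 bases before the start, and the ETV6 stretch (chr12:11649424-11649673, plus strand) held it on the opposite strand 45 bases before the start. A RUNX site was found in both windows of ETS2 and in no window of the other 5 genes, against 19.6% of all windows. The ETS2 stretch shown (chr21:38804933-38805182, plus strand) carries it near its far end. A match of 6 letters describes the sequence and says nothing about binding.

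In GRCh38, FLI1 (chr11:128686535-128813267, plus strand) and ETS1 (chr11:128458761-128587558, minus strand) are neighbours, as are ERG (chr21:38380027-38661780, minus strand) and ETS2 (chr21:38805307-38824955, plus strand). ETV2 lies at chr19:35641745-35644871, ELK3 at chr12:96194382-96269835, ETV6 at chr12:11649854-11895402 and ELF1 at chr13:40932028-41061440. Whether the TruSeq libraries keep the strand was not given in the sources used here. Reads of FLI1 and the antisense gene SENCR, of ETS1 and ETS1-AS1, of ELK3 and AC008149.1, and of ELF1 and WBP4 on the other strand can therefore not be told apart with certainty where these genes overlap.

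Depth ranged from 10366048 to 19081031 counts a library. Levels of 1 gene across libraries are given as CPM, counts relative to library size after scaling by trimmed mean of M values (TMM), and levels are compared between genes only as RPKM, which also divides by gene length. A gene was called when its Benjamini-Hochberg p, adjusted within its fit, was under 0.05, and the share of all genes called stands beside each count of the 8. Overlap between groups was examined only for the 8 genes and the companion lists, so no share over all genes stands beside it. RUNX1 itself was lower in KO cells of day 7 SOX17+ (27.2 to 41.1 CPM against 87.2 to 148 in WT), while at day 4 its libraries overlapped (3.05 to 65.3 CPM in KO and 27 to 68.5 in WT), so that the label of the unsorted KO libraries was not checked by its level. SOX17 transcript averaged 176 CPM in WT SOX17+ and 46.4 in SOX17- cells of day 7, and the transcript of CD43, SPN, averaged 2.42 CPM in CD43- and 412 in SOX17- CD43+ cells of day 12. The 2 libraries numbered 1 of day 0 stood apart from the other 6, with summed immediate early transcripts of 894.4 CPM in WT and 776.8 in KO against 216.1 to 282.6. Where a call changed without them it is given with and without them, and the part of these transcripts in the results was not tested.

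**Figure D1:**
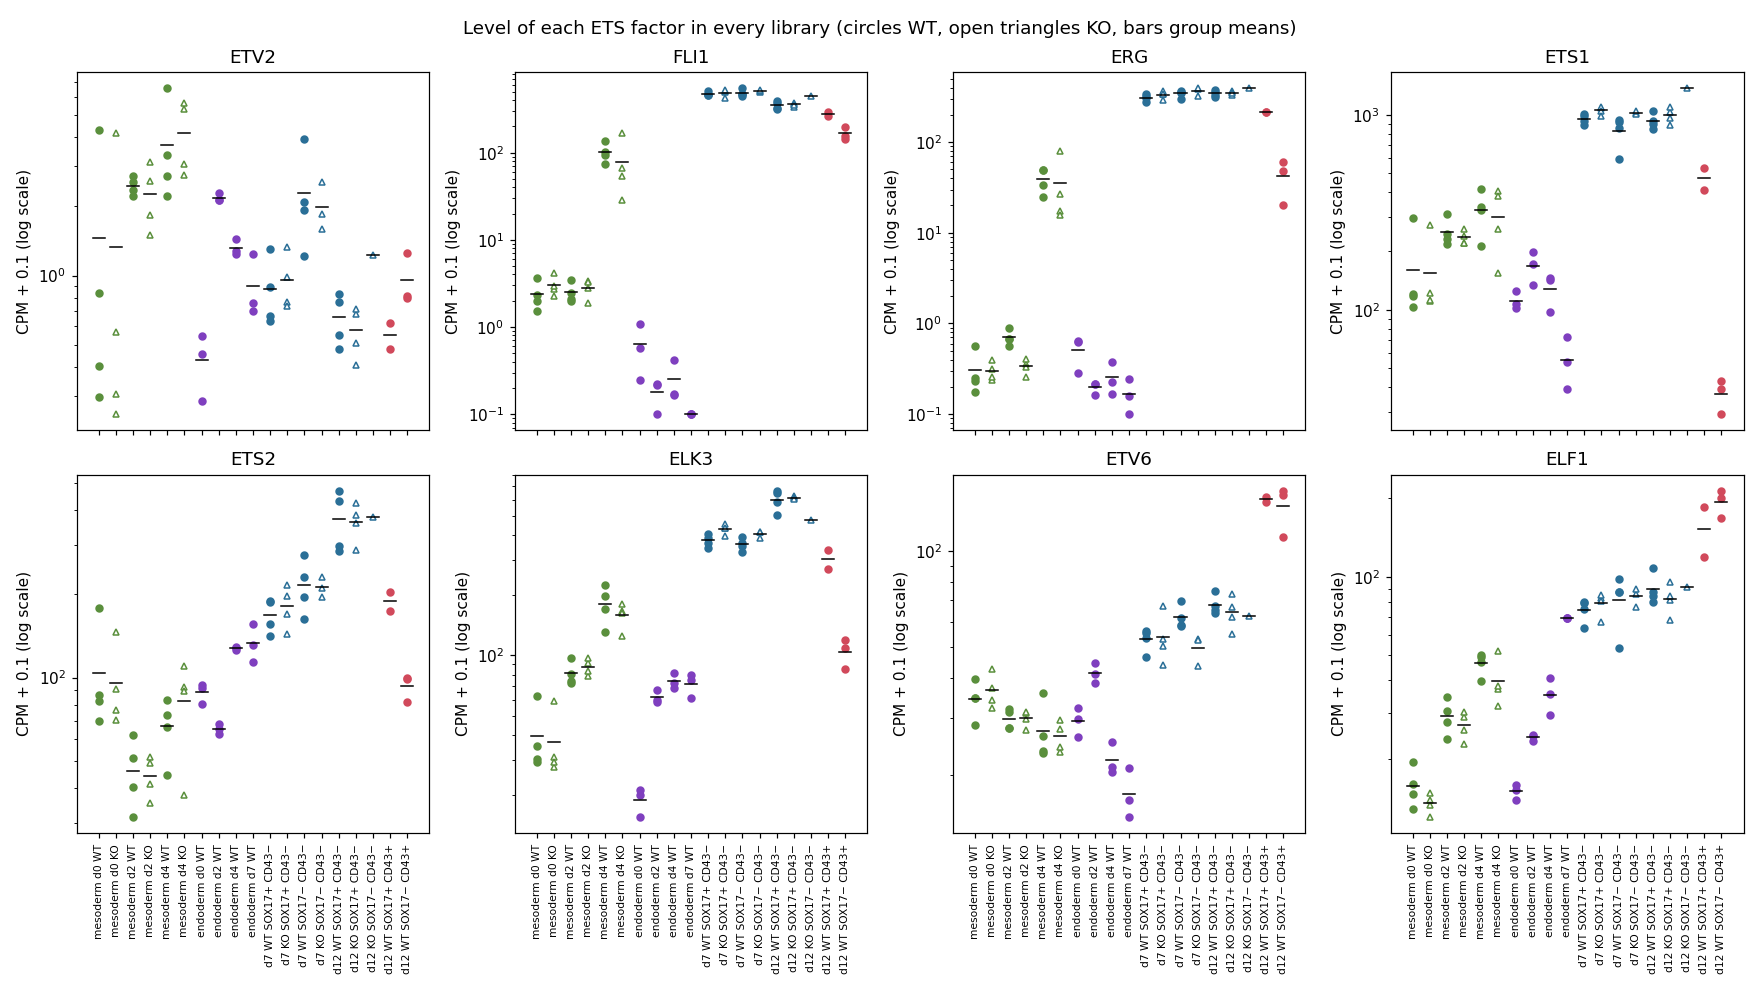
Each panel shows 1 of the 8 genes, with CPM plus 0.1 on a log scale for every library of the 19 groups. FLI1 and ERG stay under 5 CPM in the unsorted libraries of day 0 and day 2, while ETS1, ETS2, ELK3, ETV6 and ELF1 are above 10 CPM in all groups.

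The first question was when the 8 genes appear on the way to mesoderm. Between day 0 and day 2 of the WT mesoderm cultures ELK3 and ELF1 rose and ETS2 fell, while FLI1 and ERG were barely present at both days. Thus 3 of the 8 genes were called, where 45.1% of all genes were. ELK3 stood at 62.7, 35.1, 30.1 and 29.2 CPM in the day 0 libraries and at 73, 97.1, 80.2 and 73.9 CPM in those of day 2. All day 2 libraries lay above all day 0 libraries, and the log2 fold change was 1.05 ± 0.24 (SE, adjusted p = 0.00112). ELF1 ranged from 12.8 to 19.3 CPM at day 0 and from 23.8 to 34.5 CPM at day 2, a log2 change of 0.91 ± 0.15 (adjusted p = 3.84e-05). ETS2, a target of growth factor signalling, went the other way. The day 0 libraries held 177, 86.8, 69.5 and 82.2 CPM of it and the day 2 libraries 31.5, 62, 51.2 and 40.2 CPM, without overlap, and it fell by 1.17 ± 0.32 on the log2 scale (adjusted p = 0.00506).

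ETV2 and ETS1 turned on 1 library at day 0. ETV2 stood at 4.20 CPM in WT number 1 and at 0.305, 0.196 and 0.742 CPM in the others, and at 2.13, 2.62, 2.46 and 2.26 CPM at day 2. With all libraries its log2 change was 0.77 ± 0.78 (adjusted p = 0.446). Without the libraries numbered 1 of day 0, an alternative chosen after seeing the data, it was 2.53 (adjusted p = 0.00037). ETS1 showed 295 CPM in WT number 1 of day 0, 104 to 121 CPM in the others and 216 to 311 CPM at day 2. Its log2 change was 0.66 ± 0.34 (adjusted p = 0.118) with all libraries and 1.16 (adjusted p = 0.000598) without number 1. In the KO cultures the same 3 genes were called from day 0 to day 2, against 43.3% of all genes, and leaving out number 1 gave 2.96 for ETV2 (adjusted p = 0.000158) and 1.05 for ETS1 (adjusted p = 0.00146). Without these libraries 5 of the 8 genes were called in each line, 4 of them higher at day 2 and ETS2 lower. Of all genes 47.9% were then called in WT and 44.6% in KO.

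Between day 2 and day 4, FLI1 and ERG appeared. In WT, FLI1 stood at 2.34, 3.39, 1.98 and 1.88 CPM at day 2 and at 136, 103, 93.4 and 74.0 CPM at day 4, a log2 change of 5.41 ± 0.45 (adjusted p = 2.66e-09). ERG stood at 0.567, 0.582, 0.792 and 0.471 CPM at day 2, a total of 29 counts, and at 49.4, 33.3, 49.6 and 24.6 CPM at day 4, a log2 change of 6.0 ± 0.51 (adjusted p = 3.5e-09). For both genes the days did not overlap. In these unsorted bulk cultures more cells that express a gene and more RNA per cell cannot be told apart. ELK3 reached 132 to 225 CPM (log2 change 1.16 ± 0.24, adjusted p = 0.000341) and ELF1 39.7 to 50.1 CPM (0.68 ± 0.15, adjusted p = 0.000655). So 4 of the 8 genes rose and none fell, where 25.9% of all genes were called higher and 51.4% either way. ETV2 read 2.62, 3.26, 6.46 and 2.12 CPM at day 4, overlapping with day 2, and its log2 change of 0.62 ± 0.73 did not pass (adjusted p = 0.502). ETS1, ETS2 and ETV6 did not pass either, with adjusted p from 0.171 to 0.452.

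In the KO cultures FLI1 reached 66.8, 53.6, 168 and 28.1 CPM at day 4 and ERG 26.6, 17.2, 80.6 and 15.7 CPM, with log2 changes of 4.88 ± 0.43 and 7.15 ± 0.56 (adjusted p = 6.85e-09 and 9.62e-10). KO number 3 was highest and number 4 lowest for both. With ELK3, ELF1 and ETS2 this made 5 of 8 genes called, all higher, where 26% of all genes were called higher and 50.5% either way. ETS2 rose by 0.91 ± 0.32 (adjusted p = 0.0215) with overlapping libraries, and it lost the call without KO number 4 of day 2 (adjusted p = 0.0615) or KO number 1 of day 4 (adjusted p = 0.0772). The summed CPM of 6 endothelial markers (CDH5, PECAM1, TEK, TIE1, ESAM and EMCN) moved with FLI1 and ERG at day 4. It ranged from 302.8 to 531.7 in WT and from 130 to 770.1 in KO, where number 3 was again highest and number 4 lowest. At day 2 it ranged from 11.3 to 24.6 in WT, with EMCN at 0 counts. The part of the share of endothelial cells in the levels of FLI1 and ERG was not tested.

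Several genes that work with ETS factors rose in the same interval. Of 6 partner factors of the early blood and endothelial programme, 4 were called higher from day 2 to day 4 in WT and none lower. GATA2, also a partner factor, ranged from 47 to 59.8 CPM at day 2 and from 23.7 to 42.9 CPM at day 4, and was not called. Over all genes 25.9% were called higher and 51.4% either way. The median log2 change of the partner factors was 1.96 against -0.00609 over all genes. TAL1, a basic helix-loop-helix factor, rose by 7.61 ± 0.50, and LMO2, its bridging partner, by 2.61 ± 0.41. Of 17 endothelial genes tested 16 rose, with a median of 3.87, among them PECAM1, an adhesion molecule of endothelial junctions, at 8.38 ± 0.81. Of 14 other ETS factors tested none rose and 7 fell. FEV, an ETS factor of serotonergic neurons, fell by 2.63 ± 0.27 from a level of 4.01 CPM.

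A further question was whether the onset belonged to the mesoderm cultures. In endoderm FLI1 and ERG did not pass the filter on low counts. Over the 3 libraries of each day, FLI1 had 26, 4, 7 and 0 counts on days 0, 2, 4 and 7, and ERG had 19, 5, 7 and 3. With edgeR and no filter both were called lower at day 2 than at day 0. The log2 changes were -2.68 for FLI1 (adjusted p = 0.00192) and -1.97 for ERG (adjusted p = 0.0358). FLI1 was then also called lower at day 7 than at day 4 (-4.37, adjusted p = 0.0378). The 6 genes that passed the filter on low counts all changed from day 0 to day 2, 5 upwards and 1 downwards, where 55.5% of all genes were called. ETV2 rose there as well, from 0.355, 0.185 and 0.444 CPM to 2.03, 2.03 and 2.19 CPM, without overlap and with a log2 change of 2.67 ± 0.34 (adjusted p = 1.4e-05). ELK3 rose by 1.72 ± 0.13, ELF1 by 0.70 ± 0.12, ETS1 by 0.59 ± 0.21 and ETV6 by 0.50 ± 0.14, and ETS2 fell by 0.44 ± 0.11. The call of ETS1 (adjusted p = 0.0246) was lost in 4 of the 6 fits that left out 1 library, those without number 1 or 2 of either day, at adjusted p from 0.0581 to 0.106.

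From day 2 to day 4 of endoderm 2 genes rose and 2 fell (42.4% of all genes called). Endoderm number 3 of day 4 has a library number beside those of the sorted libraries, far from the other endoderm libraries. Whether it was made in another series was not given in the sources used here. ETS2, at 126 to 128 CPM on day 4, rose by 0.97 ± 0.11 and ELF1 by 0.56 ± 0.11, and ETV6, at 20.3 to 25.2 CPM on day 4, fell by 0.89 ± 0.14. ETV2 fell by 0.75 ± 0.28 (adjusted p = 0.0401), with 1.14 to 1.35 CPM on day 4, but without any 1 of the 6 libraries its adjusted p lay between 0.0587 and 0.112, and with DESeq2 it was 0.0982. From day 4 to day 7 ELF1 rose by 0.99 ± 0.11, to 69.4, 69.4 and 69.1 CPM, and ETS1 fell by 1.22 ± 0.21, to 53.6, 39.2 and 72.3 CPM (21.3% of all genes called).

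The difference between the protocols was tested as the change from day 0 in mesoderm minus that in endoderm. By day 4, FLI1 differed by 7.24 ± 0.81 (adjusted p = 4.78e-07) and ERG by 8.83 ± 0.78 (adjusted p = 1.88e-08) on the log2 scale, both towards mesoderm, and ETS2 by -1.17 ± 0.37 (adjusted p = 0.0157). These were 3 of 8 genes, where 40.4% of all genes were called. ETS1 joined these 3 genes, which kept their calls, at 1.29 (adjusted p = 0.000882) without the mesoderm libraries numbered 1 of day 0. The sizes of the FLI1 and ERG differences by day 4 rest on 7 endoderm counts each at that day. By day 2, FLI1 differed by 2.74 ± 0.91 (adjusted p = 0.0285), ERG by 3.46 ± 0.84 (adjusted p = 0.00425) and ETV6 by -0.71 ± 0.21 (adjusted p = 0.0124), with 29.5% of all genes called. In WT mesoderm alone neither FLI1 (0.07 ± 0.47, adjusted p = 0.92) nor ERG (1.5 ± 0.76, adjusted p = 0.111) was called from day 0 to day 2. ERG passed there with DESeq2 (adjusted p = 0.0454) and with the replicate block (0.016). The early differences of FLI1 and ERG rest on 4 and 5 endoderm counts at day 2, against 26 and 19 at day 0. With limma on the deposited log2 RPKM they were 0.10 (adjusted p = 0.723) and 0.13 (adjusted p = 0.638), and FLI1 also lost the call without endoderm number 2 of day 0 (adjusted p = 0.163) or of day 2 (adjusted p = 0.0908).

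In endothelium of day 7, 7 of the 8 genes stood above the unsorted day 4 cultures and ETV2 stood below them. FLI1 reached 464, 471, 454 and 508 CPM in WT SOX17+ CD43- cells, ERG 320, 339, 304 and 279 CPM, and ETS1 980, 1010, 930 and 887 CPM. No library of these 3 genes overlapped with day 4. The log2 changes were 3.00 ± 0.21 for ERG, 2.24 ± 0.16 for FLI1, 1.58 ± 0.18 for ETS1, 1.35 ± 0.18 for ETS2, 1.07 ± 0.15 for ELK3, 0.97 ± 0.14 for ETV6 and 0.69 ± 0.11 for ELF1, with adjusted p from 1.66e-06 to 0.000252. ETV2 stood at 0.790, 1.21, 0.570 and 0.533 CPM, below all 4 libraries of day 4, and fell by 2.21 ± 0.42 (adjusted p = 0.00099). All 8 genes were called, where 62.8% of all genes were. Sorting, time and library series coincide in this comparison and cannot be told apart, and the summed endothelial markers rose with it, to 3849 to 4553 CPM.

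Companion lists were counted in the same comparison, in which 62.8% of all genes were called either way. All 6 partner factors rose, with LYL1 at 1.68 ± 0.11, and so did 11 of 12 other endothelial factors and 17 of 18 endothelial genes, among them DLL4, a Notch ligand of arteries, at 7.49 ± 0.47. The other ETS factors divided, with 5 up and 5 down of 12. ELF4 rose by 2.04 ± 0.20 and ETV4 fell by 2.35 ± 0.28. Of 8 negative regulators of ERK signalling 4 did not pass, 3 fell, and DUSP5, a nuclear phosphatase of ERK, was the 1 that rose, by 3.28 ± 0.25. Of 8 immediate early genes 6 rose, such as FOSB at 7.11 ± 1.01.

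Endothelium of day 7 was also set against endoderm of the same day, which the design text describes as expressing SOX17 as well. FLI1 had 0 counts in its 3 libraries and was at least 7480-fold higher in endothelium, taken against a floor of 3 counts over the group. ERG had 3 counts in endoderm, and its ratio was 4900 with a 95% counting interval of 1680 to 23800. ETS1 was higher in endothelium by 4.10 ± 0.19, ELK3 by 2.37 ± 0.12 and ETV6 by 1.60 ± 0.13 on the log2 scale. For each of these genes the libraries of the groups did not overlap, and overlap was not counted over all genes. ELF1 (63.6 to 79.7 CPM in endothelium and 69.1 to 69.4 in endoderm) and ETV2 did not pass (adjusted p = 0.445 and 0.92). ETS2 was called at 0.32 ± 0.14 (adjusted p = 0.0487) with overlapping libraries. It did not pass with DESeq2 (adjusted p = 0.0647), with limma (0.0535) or without number 1 or 3 of endoderm or number 2 or 3 of endothelium (0.106 to 0.226). In all 6 of the 8 genes were called, all higher, where 36.3% of all genes were called higher and 71.6% either way. Sorting, protocol and library series coincide in this comparison and cannot be told apart from cell type.

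The make-up of the ETS pool changed with the cell type. In RPKM, the 8 genes supplied 31.9% ± 5.44 (SD, n = 4) of the summed transcript of these 8 and 20 other ETS factors in WT cells of day 0, 57.4% ± 4.27 at day 4 of mesoderm and 47.2% ± 1.71 (n = 3) at day 7 of endoderm. In WT SOX17+ CD43- endothelium the share was 78.4% ± 0.711 at day 7 and 80.6% ± 0.67 at day 12. ETS1 led the pool there, with 133 and 130 RPKM, and ELK3 followed with 80.8 and 129 RPKM. The leading factor outside the 8 was ETV4 at day 0 (45 RPKM) and ERF in endothelium of day 7 (35.9 RPKM). In SOX17- CD43+ cells of day 12 the share was 41.7% ± 3.47 (n = 3). There SPI1, the factor PU.1 of myeloid cells, led all ETS factors with 84.8 RPKM, and ELF1 was first among the 8 with 44.7 RPKM.

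**Figure D2:**
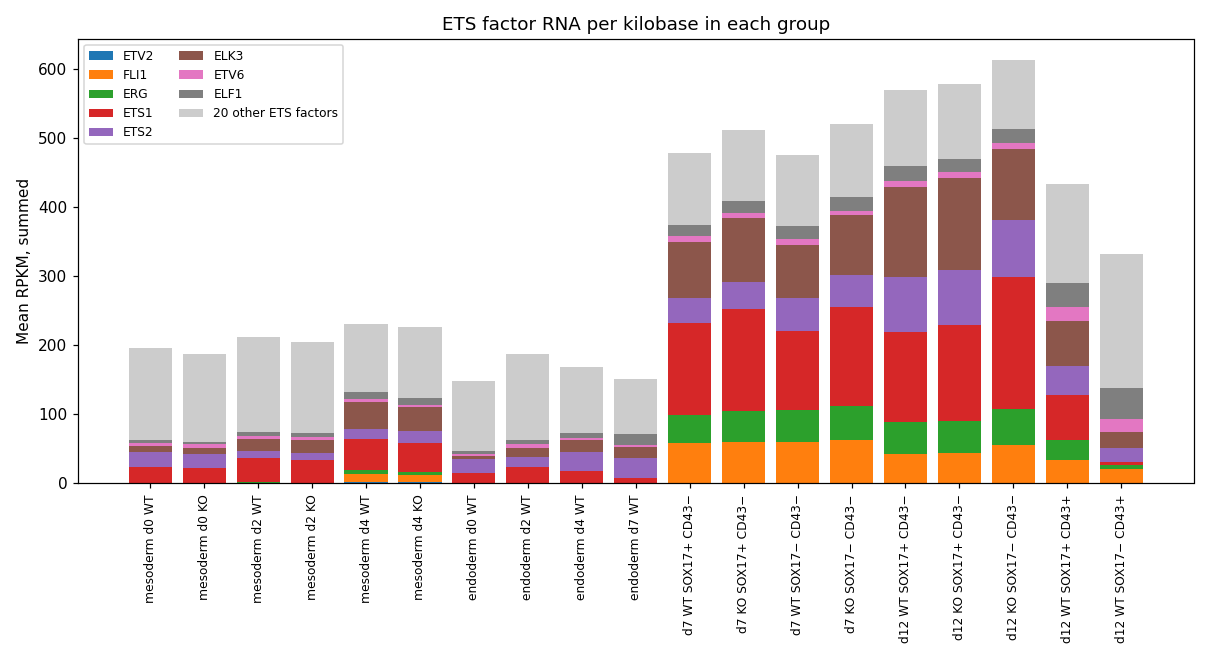
Stacked bars give the mean RPKM of each of the 8 genes and of 20 other ETS factors together in the 19 groups, named on the horizontal axis. The 8 genes sum to 374 RPKM in WT SOX17+ CD43- cells of day 7 and to 138 RPKM in SOX17- CD43+ cells of day 12, where the other factors take the larger part.

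SOX17 marks arterial endothelium, and the day 7 gate asked whether SOX17+ and SOX17- cells within CD34+ CD43- differ. Of the 8 genes only ETV2 was called in WT, lower in SOX17+ cells, where 1.6% of all genes were called. ETV2 stood at 0.790, 1.21, 0.570 and 0.533 CPM in SOX17+ cells and at 1.98, 1.84, 1.12 and 3.83 CPM in SOX17- cells. The groups overlapped by 1 library, and the log2 change was -1.50 ± 0.33 (adjusted p = 0.0147). The call was lost in the fit of the compared groups alone (adjusted p = 0.145), without SOX17- number 4 (-1.10, adjusted p = 0.0972) and without SOX17+ number 3 (0.062) or number 4 (0.0797). In KO the libraries did not overlap, with 0.637 to 1.23 CPM in SOX17+ and 1.49 to 2.45 CPM in SOX17- cells. The log2 change there was -1.12 ± 0.36 (adjusted p = 0.183). The KO libraries of the gates paired by their run of library numbers, and with that run as a block the change was -1.09 (adjusted p = 0.143). The replicate number, which did not pair them, gave -1.25 (adjusted p = 0.0413) as a block. No gene of the 8 was called in KO, where 0.67% of all genes were and 1.64% with the run block, and ETV2 was the only 1 with an unadjusted p under 0.05. Neither DESeq2 nor limma called any. The difference between lines in the SOX17 contrast passed for none of the 8 and for 0% of all genes, with a KO minus WT value for ETV2 of 0.38 ± 0.49. Summed mesenchymal markers were also higher in WT SOX17- cells (1087 to 1756 CPM against 475.4 to 789.1), and their part was not tested.

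The other 7 genes did not pass between the day 7 gates. In WT the log2 difference of FLI1 was -0.03 ± 0.10, of ELK3 0.06 ± 0.11, of ELF1 -0.13 ± 0.16 and of ERG -0.15 ± 0.17. SOX17- number 4 held 590 CPM of ETS1 against 857 to 937 CPM in the other SOX17- libraries, and ETS1 differed between the gates by 0.20 ± 0.13 (adjusted p = 0.593).

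Loss of the RUNX1 DNA-binding domain moved none of the 8 genes past the threshold. RUNX1 is the factor that opens the blood programme in endothelium, and the KO line asks which transcripts need it. In the 3 unsorted comparisons of KO with WT no gene of the 8 was called, and neither was any of all 21612 genes (0%). None of the 8 had an unadjusted p under 0.05 there, as against 146, 973 and 987 genes of the whole table at day 0, 2 and 4, and neither DESeq2 nor limma called 1 of them. In the sorted groups none of the 8 was called either, with 0.0566% of all genes called in SOX17+ cells of day 7, 0.0087% in SOX17- cells of day 7 and 0.187% in SOX17+ CD43- cells of day 12. With the run of library numbers as a block the day 7 shares were 0.0957% and 0.0305%, and none of the 8 was called. DESeq2 and limma again called none of the 8. In these 3 comparisons 860, 1094 and 707 of 22978 genes had an unadjusted p under 0.05.

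The intervals bound what these libraries could have missed in fits without a block. KO and WT libraries paired by replicate number at day 0 and in SOX17+ cells of day 7 and day 12. In SOX17- cells of day 7 they paired by the run of library numbers. The intervals leave this pairing out. FLI1 stood at 493, 515, 422 and 525 CPM in KO SOX17+ cells of day 7, overlapping with WT, and the 95% interval of its log2 difference was -0.136 to 0.263. At day 12 the interval was -0.17 to 0.23 for FLI1 and -0.333 to 0.373 for ERG. Leaving ETV2 aside, the differences of the 7 genes in the 3 sorted comparisons ranged from -0.311 to 0.316, and their intervals reached from -0.586 to 0.597. ETV2, with few counts, had intervals from -1.06 to 0.922. In unsorted cells the intervals of ERG reached from -2.82 to 1.81 and those of ETV2 from -1.81 to 1.64. The lowest ERG difference, -1.3, was that of day 2, where the libraries did not overlap. It rests on 14 counts in KO (0.156 to 0.31 CPM) and 29 in WT (0.471 to 0.792 CPM), and it was not called. ETS1 and ETV6 in SOX17- cells of day 7 marked both ends of the sorted range. ETS1 stood at 1020, 1000 and 1040 CPM in KO and 917, 937, 857 and 590 CPM in WT, without overlap (log2 difference 0.32 ± 0.14). ETV6 stood at 53, 52.5 and 43.6 CPM in KO and 58.4, 61.8, 69.6 and 58.2 CPM in WT, also without overlap (-0.31 ± 0.13). Both had unadjusted p under 0.05 and an adjusted p of 0.878. ETS2, the gene whose start windows held RUNX sites, differed by 0.13 ± 0.17, -0.02 ± 0.18 and -0.03 ± 0.17 in the sorted comparisons.

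**Figure D3:**
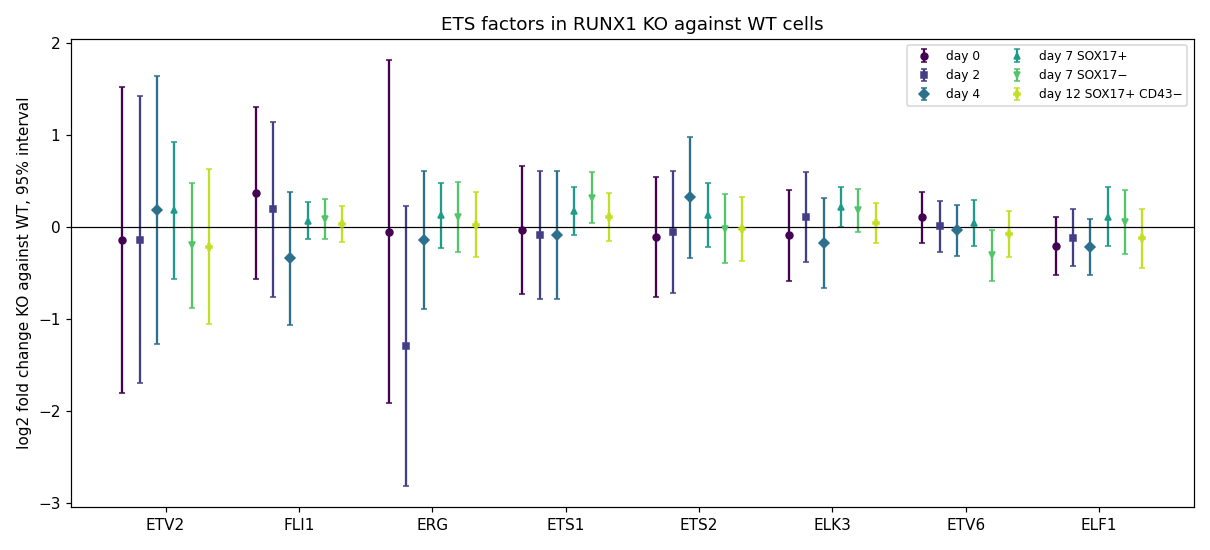
Log2 difference of KO from WT for each of the 8 genes with 95% intervals, in the 3 unsorted and 3 sorted comparisons. In the sorted comparisons the intervals of all genes but ETV2 lie between -0.586 and 0.597.

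Among related genes, the ETS factor SPI1 was called between KO and WT in SOX17+ CD43- cells of day 12. It was lower in KO by 3.51 ± 0.46 on the log2 scale (adjusted p = 0.000101), from a mean of 2.06 CPM in WT to 0.171 CPM. Of the 13 other ETS factors tested it was the only 1 called there, where 0.187% of all genes were. Summed blood markers, a list that includes SPI1, were also lower there, at 5.52 to 7.54 CPM in KO and 24.3 to 39.1 CPM in WT, and their part was not tested.

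From day 7 to day 12 the SOX17+ CD43- endothelium gained ETS2 and ELK3 and lost some FLI1. ETS2 stood at 156, 189, 187 and 141 CPM at day 7 and at 297, 469, 432 and 284 CPM at day 12 in WT, a log2 change of 1.14 ± 0.17 (adjusted p = 2.39e-05). ELK3 went from 387, 367, 404 and 344 CPM to 587, 652, 665 and 501 CPM (0.68 ± 0.11, adjusted p = 3.9e-05). FLI1 stood at 371, 324, 320 and 387 CPM at day 12 and fell by 0.43 ± 0.10 (adjusted p = 0.00233), below all day 7 libraries. ETV6 rose by 0.36 ± 0.12 (adjusted p = 0.0401), but it did not pass without SOX17+ number 1, 2 or 4 of day 7 or number 1, 2 or 3 of day 12 (highest adjusted p = 0.113) or without the filter on low counts (0.0681). These 4 calls compare with 17.8% of all genes. In KO 3 of the 8 genes were called, where 13.3% of all genes were: ETS2 at 0.99 ± 0.17, ELK3 at 0.50 ± 0.11 and FLI1 at -0.47 ± 0.10. The difference in KO effect between the days passed for none of the 8 and for 0.00435% of all genes. Immediate early transcripts moved with these changes, with sums of 453 to 774.6 CPM at day 7 and 794.5 to 2740 CPM at day 12 in WT, and of 477 to 672.1 and 808.9 to 2775 CPM in KO. Summed negative regulators of ERK went from 378.7 to 413.1 CPM at day 7 to 488.5 to 754.1 CPM at day 12 in WT, and overlapped between the days in KO. Their part in the changes was not tested. ERG and ETS1 did not pass, with ERG at 316 to 378 CPM and ETS1 at 841 to 1040 CPM at day 12 in WT (adjusted p = 0.58 and 0.894).

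At day 12 the WT cultures hold endothelium, CD43+ cells with SOX17, and CD43+ cells without it. Between the first and the last of these groups 5 of the 8 genes fell while 2 rose. The groups are separate gates of the same day, and whether cells of any gate arise from another was not tested. Of the 8, ETS1 had the lowest log2 change. It stood at 1040, 841, 898 and 928 CPM in SOX17+ CD43- cells, at 535 and 411 CPM in SOX17+ CD43+ cells and at 39, 43.2 and 29.1 CPM in SOX17- CD43+ cells. From endothelium to SOX17- CD43+ cells it fell by 4.60 ± 0.17 on the log2 scale (adjusted p = 2.05e-18). ERG stood at 316, 356, 378 and 335 CPM, at 212 and 218 CPM, and at 59.7, 47.3 and 20.0 CPM in the same order of groups, a fall by 2.99 ± 0.21 (adjusted p = 1.16e-12). FLI1 kept more of its level, with 371, 324, 320 and 387 CPM, then 290 and 264 CPM, then 156, 198 and 145 CPM (-1.03 ± 0.11, adjusted p = 3.41e-09). For these 3 genes none of the 3 groups overlapped.

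ELK3 fell by 2.48 ± 0.13 and ETS2 by 1.94 ± 0.19, from 501 to 665 CPM and 284 to 469 CPM in endothelium, to 85.3 to 119 CPM and 81.7 to 99.5 CPM in SOX17- CD43+ cells. ETV6 and ELF1 rose. ETV6 stood at 74.6, 65.4, 67.3 and 63.9 CPM in endothelium and at 154, 150 and 110 CPM in SOX17- CD43+ cells (1.07 ± 0.13, adjusted p = 5.35e-08). ELF1 stood at 80.0, 84.1, 108 and 86.9 CPM and at 201, 213 and 168 CPM (1.16 ± 0.17, adjusted p = 8.65e-07). Altogether 7 of the 8 genes were called, where 66.2% of all genes were. ETV2 reached at most 1.16 CPM in these libraries and did not pass (adjusted p = 0.157). Against SOX17- CD43- cells of day 7, all 8 genes were called (62.9% of all genes), again with ETV6 at 1.20 ± 0.13 and ELF1 at 1.30 ± 0.17 upwards and the other 6 downwards.

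**Figure D4:**
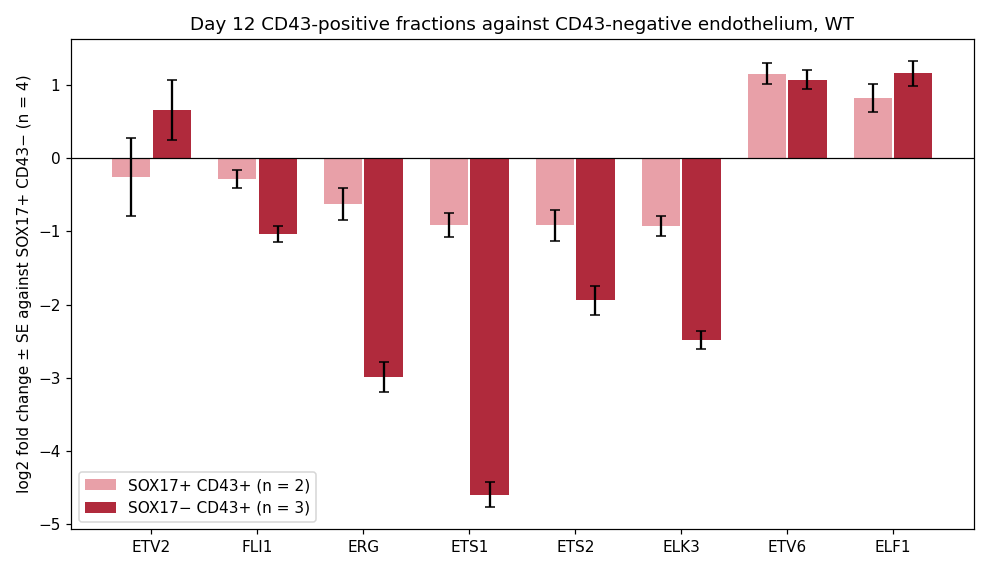
Log2 fold change ± SE of the 8 genes in the CD43+ fractions of day 12 against SOX17+ CD43- endothelium (4 WT libraries), with SOX17+ CD43+ (2 libraries) and SOX17- CD43+ (3 libraries) as separate bars. ETS1 is at -0.92 and -4.60, and ETV6 is higher by 1.15 and 1.07.

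The SOX17+ CD43+ cells, with 2 libraries, also held more ETV6 and ELF1 than endothelium. ETV6 read 142 and 148 CPM, a log2 change of 1.15 ± 0.15 from endothelium (adjusted p = 8.12e-07), and its difference from SOX17- CD43+ cells was -0.08 ± 0.16 (adjusted p = 0.709). ELF1 read 119 and 184 CPM (0.82 ± 0.19, adjusted p = 0.00156), and without number 2 it did not pass (0.42, adjusted p = 0.214). ELK3 fell by 0.93 ± 0.14, ETS2 by 0.92 ± 0.22, ETS1 by 0.92 ± 0.16 and ERG by 0.63 ± 0.22. So 6 of the 8 genes were called against endothelium, where 26.5% of all genes were. The call of ERG (adjusted p = 0.0311) was lost without either SOX17+ CD43+ library (0.105 and 0.137) and without endothelium number 3 (0.0507). FLI1, at -0.28 ± 0.12, did not pass (adjusted p = 0.0833) and passed with DESeq2 (0.016) and limma (0.0296). From SOX17+ CD43+ to SOX17- CD43+ cells 5 genes fell and none rose, where 22.9% of all genes were called lower and 37.5% either way. ETS1 was lower by 3.68 ± 0.17 in this comparison, ERG by 2.36 ± 0.22, ELK3 by 1.55 ± 0.14, ETS2 by 1.02 ± 0.22 and FLI1 by 0.75 ± 0.13.

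Marker genes moved with these fractions. The summed endothelial markers were 5122 to 6043 CPM in endothelium, 2467 to 2913 in SOX17+ CD43+ and 188.1 to 333.3 in SOX17- CD43+ cells, and all 6 had more than 3 counts in each. Summed blood markers were 24.3 to 39.1, 697 to 875.6 and 1184 to 1422 CPM, with all 7 above 3 counts in both CD43+ groups. Summed immediate early transcripts were 1070 to 2155 CPM in SOX17+ CD43+ and 1654 to 3570 in SOX17- CD43+ cells, overlapping with the 794.5 to 2740 of endothelium. The mitochondrial share of counts was highest in SOX17- CD43+ cells (8.37% to 8.85%, and 4.25% to 5.24% in endothelium). The part of endothelial cells among the CD43+ cells, of immediate early transcripts and of RNA quality in the levels of the 8 genes was not tested.

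Around the 8 genes, all 18 endothelial genes fell in SOX17- CD43+ cells against endothelium, with a median log2 change of -6.19 against -0.0227 over all genes and with DLL4 at -8.98 ± 0.52. In this comparison 66.2% of all genes were called either way. Of 12 other endothelial factors 11 fell, such as NR2F2, a nuclear receptor of veins, at -7.51 ± 0.43. The partner factors divided, with 3 of 6 up and 2 down. RUNX1 rose by 3.27 ± 0.26 and GATA2, a factor of blood stem cells, by 1.12 ± 0.15, whereas LMO2 fell by 0.97 ± 0.15. Of 13 other ETS factors 4 rose and 3 fell. SPI1 rose by 6.46 ± 0.28, from 2.06 to 176 CPM, and ETV5 by 1.41 ± 0.23, and ERF, a repressor under ERK control, fell by 1.28 ± 0.11. Of 8 negative regulators of ERK 3 rose and 4 fell, with SPRY4 at -3.69 ± 0.35.

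The ratios of ETS1 and ERG to FLI1 differed between the day 12 fractions. These ratios were chosen after their values had been seen, so the p-values given for them describe the separation of the libraries and add no evidence for it. In RPKM, ETS1 exceeded FLI1 in all WT endothelial libraries of day 12, with ratios from 2.74 to 3.21. In SOX17+ CD43+ cells the ratios were 1.78 and 2.11, and in SOX17- CD43+ cells 0.23 to 0.286. The log2 ratio differed by -3.57 between SOX17- CD43+ and endothelial libraries. The exact 2-sided permutation p was 0.0286, also after adjustment over 2 ratios, which is the smallest that 3 against 4 libraries allow. ERG to FLI1 stood at 0.918 to 1.28 in endothelium of day 12 and at 0.149 to 0.413 in SOX17- CD43+ cells (log2 difference -2.08, exact 2-sided permutation p = 0.0286). At day 7 it ranged from 0.591 to 0.775 in WT SOX17+ cells, below all 4 libraries of day 12. KO libraries of day 12 lay at 3.01 to 3.45 for ETS1 to FLI1 and 0.947 to 1.16 for ERG to FLI1.

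**Figure D5:**
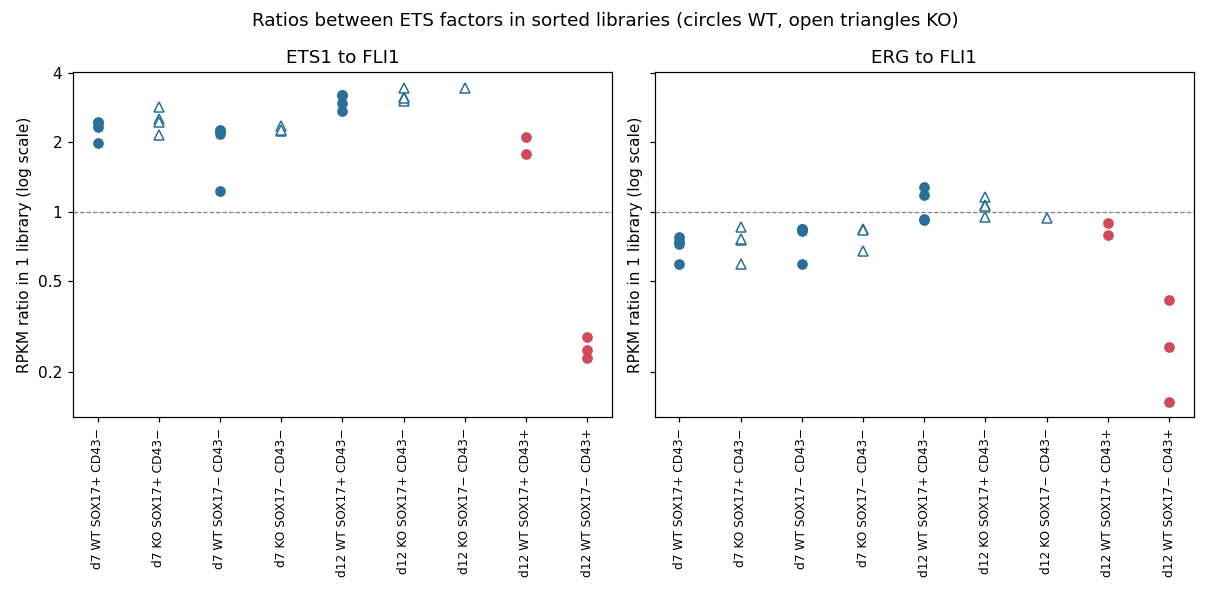
Ratio of ETS1 to FLI1 and of ERG to FLI1 in RPKM for every sorted library, on a log scale with a line at 1. ETS1 to FLI1 is above 1 in every library but the 3 of SOX17- CD43+ cells, which lie between 0.23 and 0.286.

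Ordered over the 19 groups, ETV2 was highest in day 4 mesoderm (4.10 CPM in KO and 3.61 in WT) and lowest in endoderm of day 0 (0.328 CPM). Of 18 pairs of neighbours in its order 17 overlapped, so most of this order was within the spread. FLI1 was highest in the 4 day 7 groups (474 to 510 CPM), followed by day 12 endothelium, the CD43+ fractions and day 4 mesoderm, and 11 of its 18 neighbouring pairs overlapped. ERG had its 7 highest groups among the CD34+ CD43- cells of both days (310 to 393 CPM), and 15 of 18 pairs overlapped. ETS1 peaked in the single KO SOX17- CD43- library of day 12 (1370 CPM, no replicate) and was lowest in SOX17- CD43+ cells (37.1 CPM), with 14 pairs overlapping. ETS2 and ELK3 were highest in CD43- cells of day 12 and lowest in day 2 mesoderm (44.4 CPM in KO) and day 0 endoderm (18.8 CPM), with 16 and 13 pairs overlapping. ETV6 and ELF1 were highest in the CD43+ groups and lowest in day 7 endoderm (17.4 CPM) and in KO cells of day 0 (13.4 CPM), with 17 and 15 pairs overlapping.

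Likeness between genes was measured as the Pearson correlation of mean log2 CPM over the 19 groups, among 17487 genes. The groups share libraries of 1 cell line and differ in steps of cell type, so these values describe the pattern and carry no test. ERG was most like PLVAP (0.994), PECAM1 (0.993) and CALCRL (0.992), which encode proteins of the endothelial surface. FLI1 was most like INKA1 (0.994), TNFRSF1B (0.986) and RGL1 (0.986). ETS1 was most like EVA1A (0.974), ETS2 like AL049840.4 (0.954), ELF1 like LGALS9 (0.979) and ETV6 like SAMD9 (0.96). For ELK3 the closest was AC008149.1 (0.995), which overlaps it on the other strand, and then ZEB1 (0.985). Among the 8, FLI1 and ERG correlated at 0.971, while ETV2, most like ALDH2 (0.896), correlated with the others between -0.469 and 0.0546.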

How the data were processed

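Total RNA of 65 samples was sequenced from TruSeq libraries, per the labels' protocols. The authors deposited raw fragment counts per gene, and a second table of log2 values that match log2 of TMM-scaled RPKM plus 1. The submitters' processing notes name cutadapt 1.18, featureCounts, R 3.2.2 and GRCh38, without roles. The aligner and the annotation release were not given in the sources used here. Identifiers were named from GENCODE 29 (58039 of 58302). Groups were taken from the sample titles. No source used here says whether replicates were separate cultures, and p-values then measure the spread between libraries, which may be technical. No 2 libraries of a group held identical counts.

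Counts were tested with edgeR 4.0.16 (R 4.3.3) by quasi-likelihood F tests, with TMM factors, 1 mean per group and the filter filterByExpr (min.count 10, min.total.count 15). The 27 comparisons were drawn from 6 fits, each adjusted by the Benjamini-Hochberg method over all its genes, with 0.05 as the threshold. Standard errors (SE) were derived from F, as the size of the log2 change over its root. Intervals are 95% intervals of the fit. Counting intervals and the floor of 3 counts cover counting error only. The test recovered most large seeded changes in counts simulated from its own model, in a single comparison of the sorted fit. Small changes, the genes with fewest counts and the other fits were not covered by this. CPM used TMM factors over all libraries, and RPKM was taken back from the deposited log2 values by removing the pseudocount of 1.

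The 8 genes and the companion lists (20 other ETS factors, 6 partner factors, 12 other endothelial factors, 18 endothelial genes, 8 negative regulators of ERK, 8 immediate early genes and marker lists) were chosen with earlier results of these data known. All 8 genes are named, RUNX1, SOX17 and SPN serve as checks, and up to 4 called genes of largest change may be named per list. GATA2 is also named where it was not called. Likeness names come from the 3 most correlated genes with a mean of at least 5 CPM. Alternatives were median-of-ratios scaling, no filter, DESeq2 1.42.0, limma-trend 3.58.1 on the deposited log2 RPKM, the compared groups alone, the replicate number or the run of library numbers as a block, and each library left out. A further 3 were chosen after seeing the data. Replicate numbers were taken to pair libraries where, in every same-numbered pair, deviations from group means correlated above 0.1. This held for KO against WT at day 0 (0.378 to 0.864), in SOX17+ cells of day 7 (0.357 to 0.649) and of day 12 (0.115 to 0.634), for WT SOX17+ cells over time (0.173 to 0.371), for endoderm of day 4 against day 2 (0.111 to 0.298) and for endothelium against endoderm (0.14 to 0.183). The run of library numbers paired libraries in the same SOX17+ comparisons and also for the KO gates of day 7 (0.229 to 0.478) and KO against WT in SOX17- cells of day 7 (0.169 to 0.294).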

Additional observations from a re-analysis of the deposited data

Results flagged for a closer look

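Within groups of 4 libraries, 7 of 88 sets of values had 1 library far from the other 3, and chance gives about 1 in 20 such sets. Of these 6 belong to the libraries numbered 1 of day 0. In the WT library ETV2 stood at 4.20 CPM and in the KO library at 4.09 CPM, ETS1 in the same order at 295 and 272 CPM, ETS2 at 177 CPM in WT, and ELK3 at 58.7 CPM in KO. The same libraries held the raised immediate early transcripts. The remaining 1 was ERG in KO number 3 of day 4, at 80.6 CPM. Among the day 4 mesoderm libraries it had the highest endothelial marker sum.

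The change from day 0 differed between the mesoderm and the endoderm protocol, by a test of the difference, for FLI1 (2.74 by day 2 and 7.24 by day 4), ERG (3.46 and 8.83), ETV6 (-0.715 by day 2) and ETS2 (-1.17 by day 4), all in log2 units. The values of FLI1 and ERG by both days rest on few endoderm counts.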

How the results depend on the processing

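Of 81 calls of the 8 genes, 71 were kept under every alternative listed with the methods, the 3 later ones aside, and no call changed its direction under any. Most counts of called genes stayed within 1.5 times. Among the exceptions, KO SOX17+ against SOX17- cells of day 7 gave 1 call instead of 0 with the replicate block, and the same comparison in WT gave 0 instead of 1 with the compared groups alone, 0 without SOX17- number 4, and 0 to 1 when single libraries were left out. Day 2 against day 0 gave 5 instead of 3 in WT and in KO without the libraries numbered 1, and 3 to 5 without single libraries. The protocol difference by day 2 gave 1 instead of 3 with limma. The replicate block ended no call of the 8 genes, and it added ETV2 in the KO gates (adjusted p = 0.0413) and ERG in WT from day 0 to day 2 (1.56, adjusted p = 0.016). In these 2 comparisons the replicate numbers were not shown to pair the libraries. The KO gates paired by the run of library numbers, and that block changed no call of the 8 genes in any sorted comparison. The number of genes called in the whole table depended on the setting in the weak comparisons. For WT SOX17+ against SOX17- cells it was 367, with 651 without the filter, 559 with the replicate block, 616 with the library run block, 208 with the compared groups alone and 235 without SOX17- number 4. For KO it was 154, with 446, 311, 376 and 612 under the first 4 of these, 333 with DESeq2 and 234 with limma. For KO against WT it was 13 in SOX17+ cells of day 7 (34 without the filter, 30 with DESeq2, 22 with the run block), 2 in SOX17- cells (24, 13 and 7) and 43 at day 12 (96 and 77, then 12 with limma and 10 with the compared groups alone). The day 12 minus day 7 difference in KO effect gave 1, with 11 without the filter, 8 with DESeq2, 0 with limma, 6 with the replicate block and 3 with the run block. Leaving out single libraries gave 166 to 407 genes for the WT gates, 46 to 160 for the KO gates, and, for KO against WT, 2 to 11, 1 to 2 and 28 to 52 in the order above. For SOX17+ CD43+ cells against endothelium it was 6086, with 3857 without SOX17+ CD43+ number 2. At day 2 KO against WT gave 0, with 15 by DESeq2 and 143 with the compared groups alone, and at day 4 it gave 0, with 2 by DESeq2 and 1 by limma. SOX17- CD43+ against SOX17+ CD43+ cells gave 8619, with 5683 for the compared groups alone. Median-of-ratios scaling moved group levels by factors of 0.978 to 1.03. The causes were not tested. ETV2 in all groups, and FLI1 and ERG before day 4 and in endoderm on all days, rest on few counts, which limits what could be detected.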
